A study of Mus musculus with 4 samples.

Results

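Potassium channel genes were followed across the cell classes of the mouse retina in 4 single-cell libraries. They were taken as every gene of the deposited matrix whose symbol starts with Kcn, except Kcnj10 and Kcne2, which gave 87 genes of 20094. Of these, 82 were protein coding and 5 had no coding transcript in the annotation (Kcnab3os, Kcnd3os, Kcnmb4os1, Kcnmb4os2 and Kcnq1ot1). The choice used symbols only, and no measured value.

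Each library held cells of 4 retinae pooled from 2 mice aged 6 weeks, with 15000 cells loaded on a droplet system that tags each captured transcript with a unique molecular identifier (UMI). The strain was Abca4-/-Rdh8-/- (C57BL/6J) throughout, so the lack of both genes was shared by every group. Abca4 and Rdh8 clear all-trans-retinal from photoreceptors, and the double knockout is used as a model of light damage. The unbleached group received DMSO vehicle and no bleaching light. The bleached vehicle group received DMSO, and the other bleached groups received rolipram, an inhibitor of phosphodiesterase 4, or BC11-38, an inhibitor of phosphodiesterase 11, each at 2 mg/kg in DMSO into the peritoneum. Bleached mice were kept in the dark for 24 h, their pupils were dilated with 1% tropicamide, and a white lamp then lit them at 10000 lux for 30 min. Retinae were collected 1 day later. Dark adaptation and tropicamide are not recorded for the unbleached mice, so these steps and the light cannot be told apart in the first comparison. A further group named in the series text was not analysed here.

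There was 1 library per group, so no test across mice was possible. The comparisons are between libraries, with exact 95% intervals that cover counting error only. All 3 comparisons use the bleached vehicle library, the drug comparisons as their only control, so a level that is low in that library gives a low value in the first comparison and high values in the other two. Xist, the transcript of the inactive X chromosome, was found in 48.1% of cells of the unbleached library, 0.176% of the bleached vehicle library, 51.6% of the rolipram library and 48.8% of the BC11-38 library, so that the bleached vehicle library stands apart from the others in sex make-up. Class comparisons were therefore repeated on cells with a Y-linked and no Xist UMI, where a class kept 50 such cells in both libraries. The endothelial comparison with rolipram fell out by this rule. The libraries held 5697 to 7894 cells and 28983626 to 44386442 UMIs. There were 92 barcodes in more than 1 library, of 26451 distinct barcodes.

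Potassium channels let potassium ions cross the membrane, set the resting potential and shape how fast a cell returns to it. Voltage-gated (Kv) subunits form pores that open on depolarisation, inward rectifiers (Kir) hold the cell near the potassium potential, two-pore subunits carry leak, and auxiliary subunits alter the pores they bind. In rods and cones a potassium outflow through the inner segment balances the cation current that enters the outer segment in darkness. Kcnv2 (Kv8.2) is a subunit of the channel of this current, and variants of human KCNV2 cause a cone dystrophy with a supernormal rod response.

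The 87 genes had 320253 UMIs in all, with 38 genes at 1000 UMIs or more, 30 between 100 and 999, and 19 under 100. The fewest UMIs of a gene were 13. By family there were 7 Kv1, 2 Kv2, 4 Kv3, 3 Kv4 and 5 Kv7 genes, 6 of the EAG, ERG and ELK group, 8 calcium- or sodium-activated channels, 12 inward rectifiers, 11 two-pore channels, 10 silent modifiers that act only with another Kv subunit, 13 auxiliary subunits and 6 that encode no subunit.

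The pore families share a selectivity filter, the short stretch that chooses potassium over sodium. The coding sequence of the filter is shown for genes on which the results below turn, to let the pore-forming members be compared with each other. Each stretch is 39 bases of the coding strand, 5′ to 3′, from the GENCODE M21 annotation of mm10, with the 5 filter codons in capitals (threonine or serine, any residue, glycine, then tyrosine, phenylalanine or leucine, then glycine).
Kcnv2: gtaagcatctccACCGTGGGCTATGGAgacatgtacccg
Kcna5: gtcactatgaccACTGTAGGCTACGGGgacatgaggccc
Kcnma1: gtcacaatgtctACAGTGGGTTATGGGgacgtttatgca
Kcnj14: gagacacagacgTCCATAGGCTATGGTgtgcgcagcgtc
Kcnj13: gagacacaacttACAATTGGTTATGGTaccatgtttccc
Kcnj8: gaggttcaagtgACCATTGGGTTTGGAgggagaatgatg
Kcnh5: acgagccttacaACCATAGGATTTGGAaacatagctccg
Kcnh1: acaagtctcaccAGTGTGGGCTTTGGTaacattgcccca
Kcnk1: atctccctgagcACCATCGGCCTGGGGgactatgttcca

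The stretch of Kcnv2 lies in exon 2 at chr19:27333642-27333680 on the plus strand, and that of Kcnj14 in exon 2 at chr7:45819621-45819659 on the minus strand. Kcna5 has it in exon 1 at chr6:126533733-126533771 and Kcnma1 in exon 8 at chr14:23528401-23528439, both on the minus strand. For Kcnj13 it lies in exon 2 at chr1:87389009-87389047 and for Kcnj8 in exon 3 at chr6:142566436-142566474, both on the minus strand. Kcnh5 has it in exon 7 at chr12:75087454-75087492 on the minus strand, Kcnh1 in exon 7 at chr1:192337742-192337780 on the plus strand, and Kcnk1 in exon 2 at chr8:126025317-126025355 on the plus strand.

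Kcnv2, a silent modifier that forms no channel alone, carried the same kind of filter codons as Kcna5, which forms channels alone. The fourth codon differed between genes: TAT or TAC for tyrosine in Kcnv2, Kcna5, Kcnma1, Kcnj13 and Kcnj14, TTT for phenylalanine in Kcnh1, Kcnh5 and Kcnj8, and CTG for leucine in the pore shown for Kcnk1, a two-pore channel. Kcnj14 and Kcnh1 open the filter with a serine codon, TCC and AGT. The pattern was found in all 68 members of the pore families with a coding transcript and in 0 of the 13 auxiliary subunits. It occurs in 1035 of the 15991 coding genes of the matrix, 6.47%, so a match is a description and does not mark a channel by itself.

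Cells were grouped without any Kcn gene among the genes used, so no member defined a class. The named classes with 50 or more cells in every library were rods (2296 to 2635 cells), cones (261 to 399), rod bipolar cells (291 to 599), ON cone bipolar cells (342 to 692), OFF cone bipolar cells (347 to 712), amacrine cells (475 to 1087), Müller glia (586 to 1382) and endothelial cells (52 to 96). Horizontal cells (134), retinal ganglion cells (110), microglia (83) and pericytes (78) were too few and were pooled over libraries. These names mean cells like the named type, and rest on at least 3 detected markers in each cluster. Levels are UMIs per 1000000 UMIs of the class (CPM). They are not divided by length, so a level is compared between classes for 1 gene and not between genes.

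Arr3, the cone arrestin, served as a measure of free RNA. It stood at 2524 to 5009 CPM in cones and at 2.49 to 42.9 CPM in the other 7 large classes. A member of low level in a class, where it was below its whole-library level, was therefore left out of the counts of that class. Kcnj14, a rod-weighted member, averaged 395 CPM in rods and 10.6 to 26.3 CPM in the other large classes.

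Among the 58 members with at least 100 UMIs in a large class, amacrine cells held the highest level for 25, ON cone bipolar cells for 11 and OFF cone bipolar cells for 9. Rods and rod bipolar cells held it for 4 each, Müller glia for 3 and endothelial cells for 2. When the small pooled classes were included, retinal ganglion cells held the highest level for 16 and amacrine cells for 13. Most members were thus highest in inner retinal neurons, and Kcnj14, Kcnv2 and Kcnj13 were among the 4 highest in rods.

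**Figure D1:**
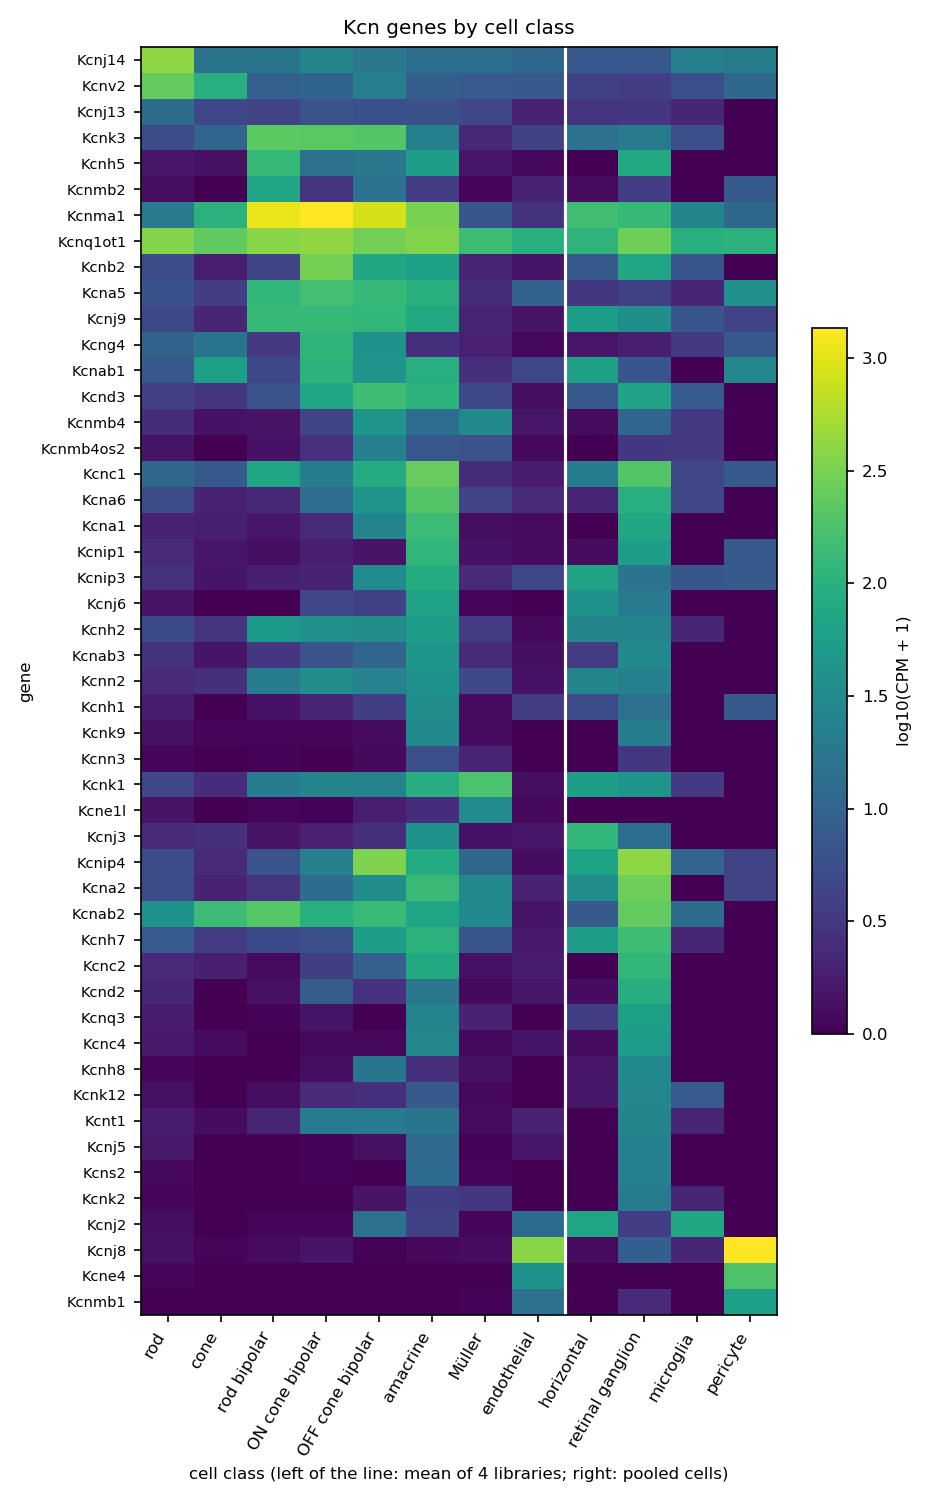
Levels of named potassium channel genes in the large and the pooled cell classes, each row a gene and each column a class, with colour giving log10(CPM + 1). Inner retinal classes hold most of the highest levels, while Kcnj14 and Kcnv2 are highest in rods and Kcnj8 in pericytes.

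Kcnv2 and Kcnj14 were higher in rods than in any other large class. Kcnv2 was at 234, 150, 250 and 312 CPM in rods of the library without bleaching, that with bleaching and vehicle, that with rolipram and that with BC11-38, the order used for all values below. In cones it was at 89.9, 64.7, 98.5 and 108 CPM. Rods were thus higher than cones in all 4 libraries. Kcnj14 (Kir2.4), a Kir2 inward rectifier, had its next highest mean level, 26.3 CPM, in ON cone bipolar cells. Cones further held Kcnab2, a beta subunit of Kv1 channels, at 152, 97.0, 163 and 152 CPM.

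Kcnma1, the pore of the large-conductance calcium-activated (BK) channel, was highest in bipolar cells. It was at 1077, 897, 1263 and 1225 CPM in rod bipolar cells, at 1241, 1339, 1618 and 1249 in ON cone bipolar cells and at 829, 736, 995 and 830 in OFF cone bipolar cells. The amacrine levels of 255, 438, 330 and 265 CPM were below these in every library. Kcnk3, an acid-sensitive leak channel, was at 228, 202, 240 and 211 CPM in rod bipolar cells, a narrow range. Kcnb2 (Kv2.2) marked ON cone bipolar cells at 265, 259, 345 and 333 CPM, with a mean 4.03-fold above OFF cone bipolar cells.

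Amacrine cells were the highest class for several Kv1 and Kv3 genes. Kcnc1 (Kv3.1), a rapidly closing delayed rectifier, was at 262, 242, 283 and 239 CPM. Kcna6 was at 193, 172, 191 and 212 CPM and Kcna1 at 148, 98.6, 141 and 172 CPM, both of the Kv1 family. The steepest contrasts with the next large class were those of Kcnip1, a Kv4-binding calcium sensor, and Kcnk9, a leak channel. Kcnip1 was at 114, 102, 115 and 127 CPM, a mean 78.4-fold above that class, and Kcnk9 was 82.8-fold above it. That class was rods for both, at 1.46 and 0.365 CPM. Pooled retinal ganglion cells were closer, at 56.4 CPM for Kcnip1 and 19.7 CPM for Kcnk9. Kcnip1 overlaps Kcnmb1 on the other strand, and whether counting used strand is not given in the sources used here.

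Among the pooled classes, retinal ganglion cells had Kcnip4, a Kv4-binding protein, at 395 CPM, the Kv1 gene Kcna2 at 276 and the Kv4 gene Kcnd2 at 89.6. Horizontal cells had Kcnj3 at 118 CPM, Kcnj2 at 71.6 and Kcnip2 at 68.2. Microglia had Kcnj2 at 71.7 CPM, Kcnk13 at 49.0, Kcnk6 at 28.7 and Kcnn4, the intermediate-conductance calcium-activated channel, at 20.3. These are single values over all libraries, with no spread, and no microglial cell came from the BC11-38 library.

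Vessels were marked by Kcnj8 (Kir6.1), the pore of the vascular ATP-sensitive channel. It stood at 1358 CPM in pericytes, with an interval of 1228 to 1497, and at 416, 461, 213 and 406 CPM in endothelial cells. Pericytes were also the highest class for the auxiliary subunits Kcne4 (183 CPM) and Kcnmb1 (57.6 CPM). Rgs5, a pericyte marker, was among the leading genes of the endothelial cluster, so how much of Kcnj8 there belongs to attached pericytes was not tested.

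Müller glia had Kcnk1 and Kcne1l at their highest level among the large classes. Kcnk1, a weak leak channel, was at 171, 122, 176 and 231 CPM. Kcne1l, an X-linked auxiliary subunit of the KCNE family, was at 21.6, 7.94, 36.0 and 62.2 CPM, on average 21.8-fold above the next large class. Kcnq1ot1, a long non-coding transcript that lies antisense to Kcnq1 and encodes no channel, was found in every large class, with mean levels of 95 to 413 CPM in the large classes.

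For the comparisons, a member was counted in a class where the compared libraries held 100 or more of its UMIs and where at least 1 of them had a level at or above that of the whole library, and a difference of at least 1.5-fold was taken as called, a rule of size and not a test. In all, 53 members were counted somewhere, and the other 34 met these limits in no class. Between the bleached and unbleached vehicle libraries, 21 of 104 pairs of member and class differed, 9 higher and 12 lower after bleaching. Over all genes by the same rule 9.16% of pairs differed, 5.54% higher and 3.61% lower. Between the rolipram and bleached vehicle libraries 27 of 110 pairs differed, 21 higher and 6 lower with rolipram, against 13.8% of all pairs, 6.64% higher and 7.19% lower. For BC11-38 against bleached vehicle 31 of 105 pairs differed, 20 higher and 11 lower, against 17.6% of all pairs, 7.67% higher and 9.9% lower. The median pair of a member had 605, 543.5 and 602 UMIs in the 3 comparisons against 402, 390 and 389 over all genes, so members were measured somewhat more deeply over all classes. In Müller glia they had fewer UMIs than the background (389, 409 and 424 against 944, 925.5 and 807), and likewise in OFF cone bipolar cells (285, 261 and 316 against 310, 333 and 331). All 79 called pairs had intervals that left out a ratio of 1, and 9, 10 and 16 had intervals wholly past 1.5-fold. The limits of 100 UMIs and 1.5-fold made the first of these likely in advance.

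By family, the auxiliary subunits had the most called pairs, and also the most counted pairs. Of their 21 counted pairs, 0 were higher and 6 lower in the bleached against the unbleached vehicle library, 7 higher and 0 lower with rolipram, and 8 higher and 1 lower with BC11-38. Over all genes the shares higher and lower were the 5.54% and 3.61%, 6.64% and 7.19%, and 7.67% and 9.9% given above. These 3 counts share the bleached vehicle library. The silent modifiers and the Kv4 genes had larger called shares, over few pairs. Of 5 silent modifier pairs, 2 were higher and 1 lower, 2 higher and 1 lower, and 2 higher and 2 lower in the 3 comparisons. Of 4 Kv4 pairs, 1 was higher and 1 lower, 1 higher and 1 lower, and 0 higher and 2 lower. Kcnab2, Kcnip4, Kcnmb4 and Kcne1l, which bind Kv1, Kv4, BK and Kv channels in turn, made up most of the called auxiliary pairs. Of these 4 genes, 2 differed in more than 1 class, Kcnip4 and Kcnmb4. With the same mix of clusters in both libraries, described below, no Kcnip4 pair stayed past 1.5-fold. Kcnmb4 then stayed so in Müller glia only.

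**Figure D2:**
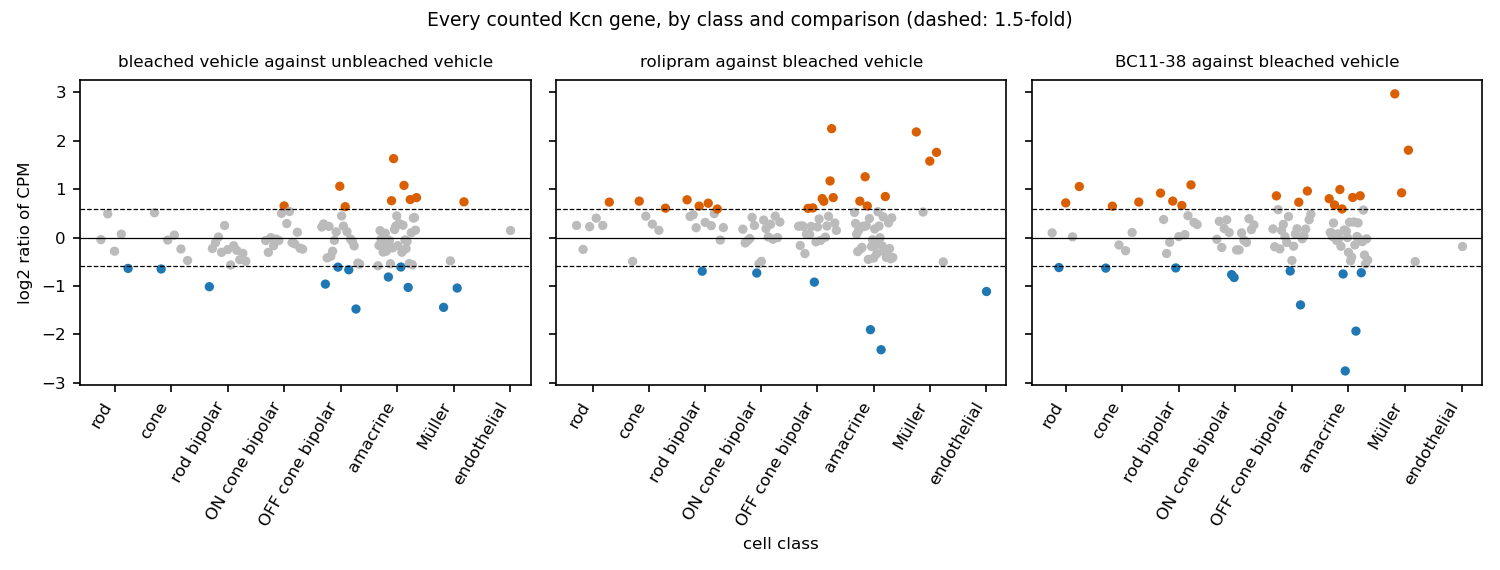
Log2 ratio of every counted potassium channel gene by cell class, in 1 panel per comparison, with each point a gene and the lines at 1.5-fold. The lowest points are amacrine (-2.75 for Kcnh1 with BC11-38) and the highest are Müller (2.97 for Kcne1l with BC11-38), and most points lie between the lines.

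The unit of comparison is a class, and a class can hold clusters of cells in different shares. Each ratio was therefore also computed with the same mix of clusters in both libraries. Clusters with 20 or more cells in both entered, with a weight set by their UMIs and the same in both. Cells of other clusters were left out. For BC11-38 this kept 2 rod and 2 Müller clusters: Müller cluster 5 (72.7% of the class in bleached vehicle) fell out, and cluster 4 had 28 bleached vehicle cells. Of the 79 called pairs, 65 kept their direction and 42 were still at least 1.5-fold. Both counts include the rod bipolar, cone and endothelial pairs, which could not change. Of the called pairs, 8 of 19 in OFF cone bipolar cells and 4 of 24 in amacrine cells stayed past 1.5-fold. The 11 pairs of rod bipolar cells, 6 of cones and the single endothelial pair stayed by construction. Each of these classes was 1 cluster. In Müller glia 8 of 9 stayed, in ON cone bipolar cells 3 of 4 and in rods 1 of 5.

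**Figure D3:**
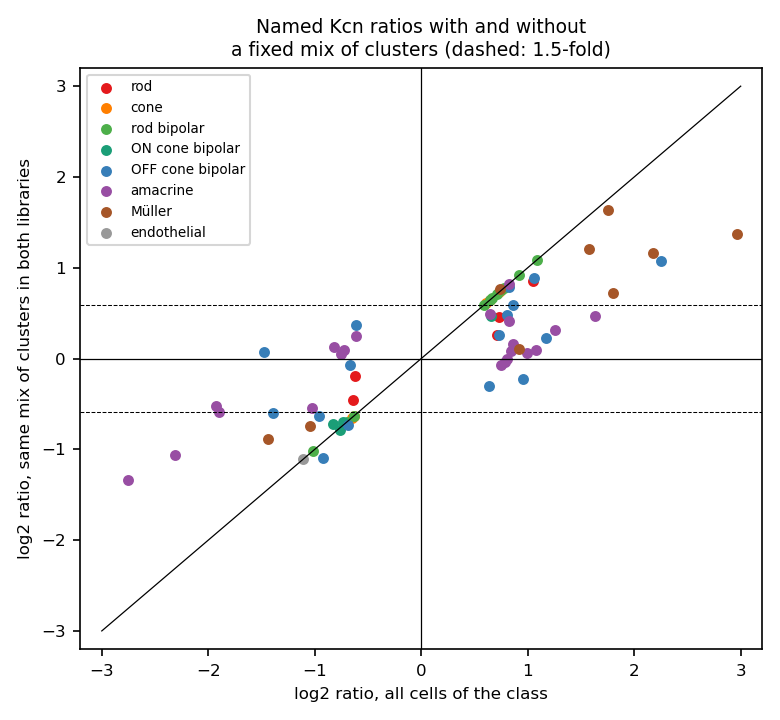
Log2 ratio of the 73 named and called pairs over all cells of the class (horizontal axis) against the log2 ratio with the same mix of clusters in both libraries (vertical axis). Rod bipolar, cone and endothelial points lie on the diagonal by construction. The 11 named pairs on the other side of 0 are all from amacrine or OFF cone bipolar cells.

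In rods, Kcnv2 was the member with the clearest difference. The values of 234, 150, 250 and 312 CPM had intervals of 220 to 249, 138 to 163, 234 to 266 and 294 to 331. Bleached vehicle was the lowest library, and its interval did not overlap that of any other, while those of the unbleached and rolipram libraries overlapped. Against unbleached vehicle it was lower by a log2 ratio of -0.64, a 1.56-fold difference with an interval of 1.40 to 1.73. Rolipram was higher than bleached vehicle by 0.73 on the log2 scale (ratio interval 1.496 to 1.843) and BC11-38 by 1.05 (1.88 to 2.30).

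Kcnj14 in rods showed the same order at 371, 305, 402 and 500 CPM. Only BC11-38 was past 1.5-fold of bleached vehicle, at a log2 ratio of 0.71 (1.52 to 1.77). Kcnv2 was past 1.5-fold in all 3 comparisons. Of the members counted in rods, 1 of 5, 1 of 6 and 3 of 5 were called in the 3 comparisons, beside 6.66%, 10.7% and 17.3% of all genes there.

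The rod differences moved with the make-up of the class. Rod cluster 0 held 25.6%, 5.87%, 33.8% and 62.8% of rods, and cluster 2 held 28.3%, 51.2%, 18.7% and 0.479%. Cluster 18, led by the interferon-response genes Irf7 and Bst2, held 3.32%, 13.1%, 0.0759% and 0%. Within cluster 0, Kcnv2 was at 290, 173, 279 and 320 CPM, and within cluster 1 at 249, 172, 255 and 288 CPM, so bleached vehicle was lowest in both. With the same mix of clusters the Kcnv2 log2 ratios were -0.46, 0.46 and 0.85, and that of Kcnj14 with BC11-38 was 0.26. For BC11-38 only clusters 0 and 1 entered, with 147 and 172 of the 2505 bleached vehicle rods, so most of those rods were left out. In cells with a Y-linked and no Xist UMI the Kcnv2 ratios were -0.33, 0.77 and 1.22, the first of them within 1.5-fold. The part of cluster make-up and of sex in the rest was not tested. The median gene in rods had log2 ratios of 0.09, -0.09 and -0.13, each opposite in sign to the Kcnv2 ratio.

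In cones, Kcnv2 had 89.9, 64.7, 98.5 and 108 CPM, again lowest in bleached vehicle. It was higher with rolipram by a log2 ratio of 0.61 (1.19 to 1.95) and with BC11-38 by 0.73 (1.32 to 2.10). Its ratio of -0.47 between the vehicle libraries was within 1.5-fold. Kcnab2 had log2 ratios of -0.65, 0.75 and 0.65 in cones. In cells with a Y-linked and no Xist UMI, its first ratio was -0.21, within 1.5-fold. Kcnab1, another Kv1 beta subunit, was at 55.1, 78.5, 55.8 and 50.7 CPM, lower with BC11-38 by a log2 ratio of -0.63. In cones, 1, 2 and 3 of the 6 members counted were called, beside 8.74%, 14.8% and 15.8% of all genes.

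**Figure D4:**
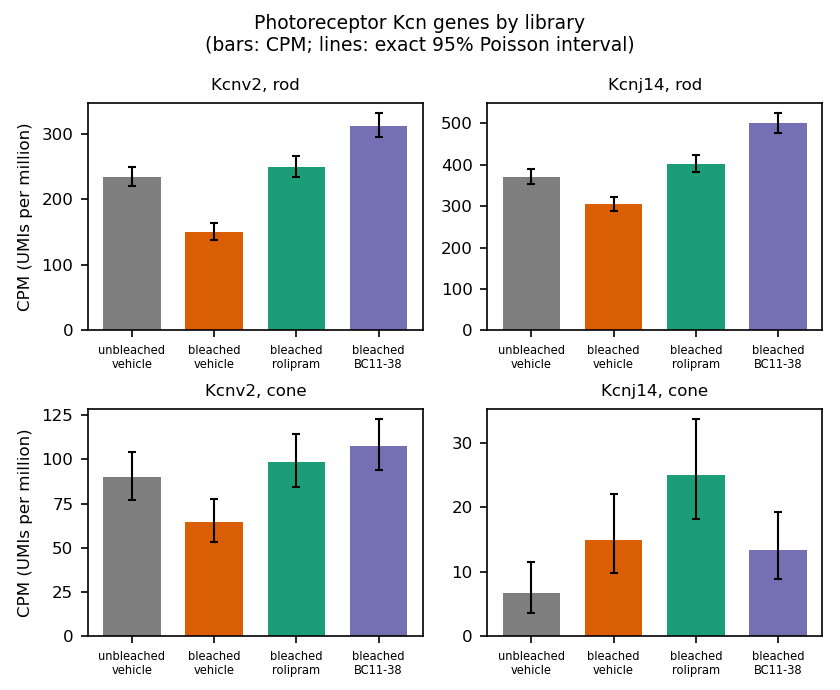
Levels of Kcnv2 and Kcnj14 in rods and cones in CPM for the 4 libraries, with exact 95% Poisson intervals that cover counting error only. Kcnv2 in rods is lowest in the bleached vehicle library at 150 CPM and highest in the BC11-38 library at 312 CPM, and Kcnj14 in rods goes from 305 to 500 CPM between the same libraries.

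Rod bipolar cells formed a single cluster of 1894 cells, and the make-up of cells within it was not tested. Kcna5 (Kv1.5) was at 144, 71.0, 122 and 134 CPM. Bleached vehicle was the lowest library, at a log2 ratio of -1.02 against unbleached vehicle (a 2.02-fold difference, interval 1.71 to 2.40), and the drug libraries were higher than it by 0.78 and 0.92. Kcnj9 (Kir3.3), a G protein-gated inward rectifier, was likewise lowest in bleached vehicle at 129, 87.0, 142 and 138 CPM, with log2 ratios of 0.71 and 0.66 for rolipram and BC11-38. Its difference between the vehicle libraries was within 1.5-fold, as was its rolipram ratio in cells with a Y-linked and no Xist UMI (0.47).

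Kcnmb2, an inactivating BK subunit, was at 62.1, 45.2, 67.9 and 96.0 CPM, with log2 ratios of 0.59 and 1.09 for the drugs. Kcnh2, the ERG channel, was at 45.0, 36.3, 57.0 and 61.3 CPM, with ratios of 0.65 and 0.75. Kcnh5, an EAG channel, went the other way: at 131, 156, 96.0 and 101 CPM it was lower than bleached vehicle by log2 ratios of -0.70 with rolipram and -0.63 with BC11-38. Of the 13 members counted in rod bipolar cells, 1, 5 and 5 were called, beside 8.56%, 10.7% and 13.9% of all genes. Kcnma1 and Kcnk3 were not among them.

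**Figure D5:**
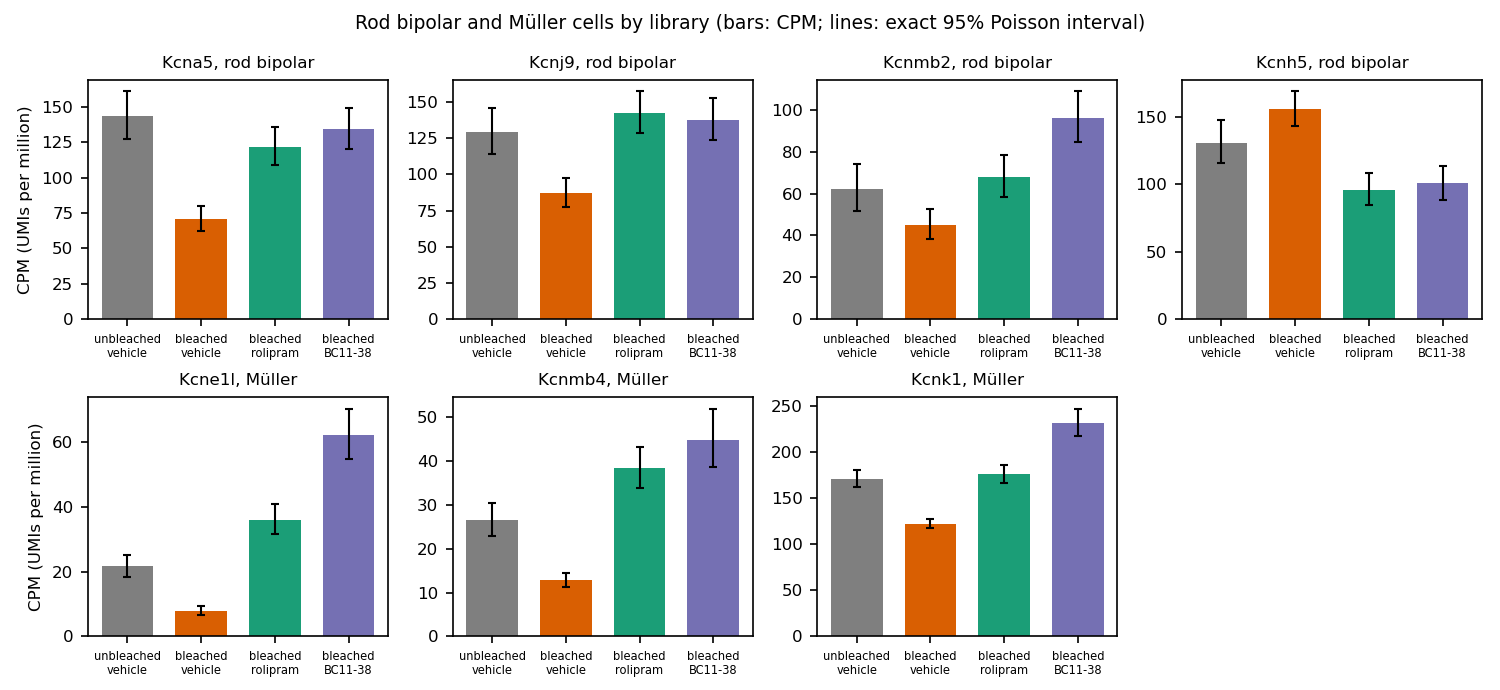
Levels in CPM of Kcna5, Kcnj9, Kcnmb2 and Kcnh5 in rod bipolar cells and of Kcne1l, Kcnmb4 and Kcnk1 in Müller glia for the 4 libraries, with exact 95% Poisson intervals. The bleached vehicle library is the lowest in 6 of the 7 panels and the highest for Kcnh5.

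In Müller glia the auxiliary subunits Kcne1l and Kcnmb4 were lowest in the bleached vehicle library. Kcne1l at 21.6, 7.94, 36.0 and 62.2 CPM was lower in bleached than in unbleached vehicle by a log2 ratio of -1.44 (interval of the fold 2.17 to 3.41). It was higher with rolipram by 2.18 and with BC11-38 by 2.97. Kcnmb4, a neuronal BK subunit, was at 26.5, 12.8, 38.3 and 44.8 CPM, with log2 ratios of -1.04, 1.58 and 1.80. It overlaps the non-coding Kcnmb4os1 and Kcnmb4os2 on the other strand. The 3 genes were counted separately, but strand use is not given in the sources used here, so whether they share reads is not known. Kcnmb4os2 was itself higher with rolipram by 1.76. Kcnk1 had log2 ratios within 1.5-fold except for BC11-38, at 0.92.

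These Müller values move with other features of the libraries. The background in this class was 22%, 47.6% and 52.7% of genes, and 3 of 4, 3 of 5 and 3 of 4 members were called. Median UMIs per cell were 11503, 13676, 5553.5 and 6765. Cluster 4 held 28.2%, 2.03%, 68.9% and 92.4% of the class and cluster 5 held 53.2%, 72.7%, 18.8% and 0.169%. Within cluster 5, Kcne1l was at 14.98, 7.60 and 23.0 CPM and Kcnmb4 at 21.1, 12.7 and 33.6 CPM in the first 3 libraries, and Kcnk1 was at 149, 129 and 130. With the same mix of clusters the log2 ratios of Kcne1l were -0.89, 1.17 and 1.37, and that of Kcnk1 with BC11-38 was 0.10. Those of Kcnmb4 were -0.75, 1.21 and 0.72. Kcne1l is X-linked, and in cells with a Y-linked and no Xist UMI its ratios were -0.47, 2.06 and 2.77, the first within 1.5-fold. The part of depth in these ratios was not tested.

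In ON cone bipolar cells Kcng4 and Kcnd3 were the members that differed. Kcng4, a silent modifier of Kv2, was at 97.6, 153, 105 and 86.5 CPM, higher in bleached than in unbleached vehicle by 0.65 and lower with BC11-38 by -0.83. Kcnd3 (Kv4.3), an A-type channel, was at 69.0, 97.6, 58.7 and 57.4 CPM, lower with rolipram by -0.73 and with BC11-38 by -0.77. The Kcng4 ratios with the same mix of clusters were 0.47, within 1.5-fold, and -0.72. Within cluster 10, where Kcng4 was above its class level, its levels were 212, 311, 271 and 170 CPM. In this class 1 of 15, 1 of 17 and 2 of 16 members were called, beside 4.1%, 4.37% and 6.82% of all genes. Kcnma1 and Kcnb2 were within 1.5-fold in every comparison.

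OFF cone bipolar cells had 6 of 22, 8 of 25 and 5 of 23 members called, beside 6.09%, 5.21% and 6.43% of all genes. Kcng4 also stood out here, at 29.2, 61.0, 32.2 and 37.7 CPM, with log2 ratios of 1.06, -0.92 and -0.69. These stayed at 0.89, -1.10 and -0.73 with the same mix of clusters. Kcna5 was at 166, 85.0, 101 and 154 CPM, lower in bleached vehicle by -0.96 (-0.63 with the same mix) and higher with BC11-38 by 0.86. Bleached vehicle was again the extreme library for both genes, the highest for Kcng4 and the lowest for Kcna5.

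Several other OFF cone bipolar ratios were smaller or turned with the same mix of clusters. Kcnip4 was at 353, 222, 388 and 368 CPM and Kcnmb4 at 61.9, 22.2, 49.95 and 43.2 CPM, with log2 ratios of -0.67 and -1.48 between the vehicle libraries. With the same mix these were -0.07 and 0.07, and with each cell weighing the same Kcnip4 was at -0.32. Cluster 27, where Kcnip4 was at 888 CPM and Kcnd3 at 665, held 17.3%, 7.22%, 12.2% and 16.3% of the class. Cluster 32, where Kcnmb4 was at 177 CPM, held 13.3%, 0.637%, 8.29% and 6.42%. With 3 bleached vehicle cells, it was left out of the same mix. Kcnd3 in the class was at 163, 107, 163 and 144 CPM, and its ratio of -0.61 between the vehicle libraries was 0.37 with the same mix. Kcnj2, with 71 UMIs in bleached vehicle and 29 in BC11-38, had a ratio of -1.39 there, and -0.60 with the same mix. Kcnn2, a small-conductance calcium-activated channel, differed from these: it was higher with rolipram by 0.82, and by 0.79 with the same mix.

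Amacrine cells had the most members counted, with 8 of 38, 6 of 37 and 10 of 37 called, beside 8.81%, 7% and 9.12% of all genes. Kcnh1 (EAG1) was at 25.2, 77.8, 20.8 and 11.5 CPM, the highest in bleached vehicle, with log2 ratios of 1.63, -1.90 and -2.75. Kcnj5 (Kir3.4) was at 10.8, 22.9, 4.55 and 5.96 CPM, with ratios of 1.08, -2.32 and -1.93. Kcnma1 had 255, 438, 330 and 265 CPM, with ratios of 0.78 in the first comparison and -0.73 with BC11-38. All 3 genes were above their class level in amacrine cluster 21, led by Lamp5, Tfap2b and Slc6a9, where they stood at 182, 65.5 and 1348 CPM. That cluster held 6.07%, 26.1%, 8.99% and 7.2% of amacrine cells.

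Within cluster 21, Kcnh1 was at 174, 246, 164 and 98.8 CPM and Kcnma1 at 1282, 1202, 1739 and 1295 CPM. With the same mix of clusters the Kcnh1 log2 ratios were 0.47, -0.59 and -1.34, and those of Kcnma1 were -0.04 in the first comparison and 0.10 with BC11-38. The direction of Kcnh1 was thus kept, with a smaller size, and that of Kcnma1 was not. Kcnh1 shares part of its locus with Hhat and Kcnma1 with 4930519K11Rik, and strand use is not given in the sources used here.

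Kcnc2 (Kv3.2), at 77.9, 44.3, 106 and 88.0 CPM, was lower in bleached vehicle by -0.82 and higher with the drugs by 1.25 and 0.99. With the same mix these were 0.13, 0.31 and 0.06. Kcnk9 was higher with the drugs by 0.85 and 0.86, by 0.08 and 0.16 with the same mix, and by 0.24 and 0.23 with each cell weighing the same, and Kcna1 was higher with BC11-38 by 0.80, a ratio of -0.0002 with the same mix. Cluster 15, where Kcnc2 was at 129 CPM, held 18.7%, 5.26%, 14.3% and 16.2% of amacrine cells. Kcnt1, a sodium-activated channel, was at 11.4 CPM in unbleached and 20.2 CPM in bleached vehicle, a ratio of 0.82 that was 0.82 with the same mix. The 4 amacrine pairs still past 1.5-fold with the same mix were Kcnt1, Kcnh1 with each drug and Kcnj5 with rolipram (-1.07).

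In endothelial cells Kcnj8 was the single member counted. At 416, 461, 213 and 406 CPM it was lower with rolipram than with bleached vehicle by a log2 ratio of -1.11 (ratio interval 0.39 to 0.54), and within 1.5-fold in the other 2 comparisons. Since Rgs5, a pericyte marker, was among the leading genes of this cluster, its share of attached pericytes may differ between libraries, and this was not tested. The separate pericyte class held 19 cells in bleached vehicle and 38 with rolipram. The backgrounds were 9.03%, 12.6% and 20.6% of genes. The rolipram ratio was not repeated on cells with a Y-linked and no Xist UMI, as too few were left.

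Other genes of potassium and cation handling were counted by the same rule, from a list of 27 found in the matrix (HCN and CNG channels, sodium pumps, Slc12 and Slc24 carriers and channel partners). Of 67 pairs, 11 were higher and 2 lower in bleached against unbleached vehicle. Of 65 pairs, 4 were higher and 6 lower with rolipram, and of 68 pairs, 7 were higher and 10 lower with BC11-38. The called shares were 19.4%, 15.4% and 25.0%, beside 9.16%, 13.8% and 17.6% over all genes, so that with rolipram the share was near the background. Hcn4, a hyperpolarisation-activated channel, was at 72.9, 136, 84.5 and 55.2 CPM in OFF cone bipolar cells, where bleached vehicle was highest. Cngb3, a subunit of the cyclic nucleotide-gated (CNG) channel of cones, was at 362, 219, 436 and 493 CPM in cones, lowest in bleached vehicle, as Kcnv2 was.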

How the data were processed

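Single-cell RNA of 4 pooled-retina libraries was analysed, 1 per group, with 5697 to 7894 cells and 28983626 to 44386442 UMIs each. The deposited values are on a natural log scale, per the file headers, as ln(1 + x) with x the UMI count scaled to 10000 for its cell. Cell Ranger 6.0.1, Seurat 3.2.2 and mm10 are named per the submitters' processing notes, without roles. Treatment of intronic and antisense reads is not given in the sources used here. Back-transformed values were whole multiples of a step per cell, so UMIs were recovered (100% of values within 0.001 of a whole number).

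Cells were clustered with scanpy 1.11.5 and leidenalg 0.10.2 (2000 variable genes without Kcn, Xist, Tsix or Y-linked genes, 30 components, 15 neighbours, resolution 1), giving 46 clusters. A cluster took a class name from at least 3 markers detected in 15% of its cells and 2-fold above the median cluster. Scrublet called 0.0294% to 0.304% of cells against 4.56% to 6.32% expected, so it found few of the doublets, and most remain.

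UMIs were summed per class and library. Ratios used 0.5 UMIs added in proportion to class totals; intervals are exact 95% intervals of counting error. No test across samples was possible with 1 library per group. Genes named were the 5 highest of each class, those 3-fold or more above the next class, up to 4 highest and 4 lowest called ratios per class and comparison, and a fixed list. The members and lists were chosen with earlier results of these data known. The scripts were tested on simulated data. Versions were numpy 2.4.6, scipy 1.17.1 and pandas 2.3.3. Some genes that the rule names are not reported here, and the counts include them.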

Additional observations from a re-analysis of the deposited data

Results flagged for a closer look

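Kcnab1, a Kv1 beta subunit, went in opposite directions in different classes with BC11-38 against bleached vehicle, at a log2 ratio of -0.63 in cones and 0.67 in amacrine cells. Kcnd3 did so with rolipram, at -0.73 in ON cone bipolar cells and 0.61 in OFF cone bipolar cells. In a same mix of clusters for both libraries, neither opposite direction was kept: Kcnab1 was at -0.63 in cones and -0.0972 in amacrine cells, and Kcnd3 at -0.70 in ON and -0.0514 in OFF cone bipolar cells. Each value compares 1 library with 1 library, and the difference between the classes was not tested.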

How the results depend on the processing

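No paired analysis was possible because each group had 1 library. The setting that moved most results was the same mix of clusters in every library, chosen after seeing the data. Under it the ratios of rod bipolar, cone and endothelial cells could not move, since each class was 1 cluster. The calls under it were 8 for bleached against unbleached vehicle (21 in the text), 18 for rolipram (27) and 18 for BC11-38 (31). With this setting 42 of the 73 named ratios stayed past 1.5-fold, those of the 1-cluster classes included. It turned the direction of 11 of the named ratios: in the first comparison Kcnh7 (-0.30), Kcnd3 (0.37) and Kcnmb4 (0.0688) in OFF cone bipolar cells and Kcnip4 (0.25), Kcnc2 (0.13) and Kcnma1 (-0.0363) in amacrine cells, with rolipram Kcnab1 (-0.0739) in amacrine cells, and with BC11-38 Kcnmb4 (-0.22) in OFF cone bipolar cells and Kcnd2 (0.0463), Kcna1 (-0.0002) and Kcnma1 (0.10) in amacrine cells. The cause was not tested.

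A minimum of 30 UMIs gave 32 and 41 calls in the first 2 comparisons, and 1 UMI in each library gave 59, 73 and 71 over the 3. A fold of 2 gave 8, 9 and 7. Keeping members below their whole-library level gave 46 with rolipram, 39 higher and 7 lower. Counts stayed within 1.5-fold under a median-of-ratios scaling, equal weight per cell, removal of the highest doublet scores, Leiden resolution 0.5, Kcn genes allowed in the clustering and cells with a Y-linked and no Xist UMI, and none of these turned the direction of a named ratio. Of 82 ratios, 77 stayed close under the other scaling and 64 of 81 in the Y-linked cells. The class of highest level was the same for 50 to 53 of the 53 named members under the alternatives tried for it. Depth limits the 19 members under 100 UMIs, which were in no comparison.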

Other observations

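Kcnj13 (Kir7.1), an inward rectifier of the pigment epithelium, was at 719 CPM (64 UMIs, interval 554 to 918) in an unnamed cluster of 18 cells led by Ttr, Ptgds, Trf, Rgr, Dct, Rdh5 and Rpe65, against 12.1, 12.0, 14.1 and 9.35 CPM in rods, its highest large class. The cluster is below the 50 cells asked of a class, and was given no name.

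Starburst amacrine cells (33 cells, 26 of them from the unbleached library and 0 from bleached vehicle) had Kcnc1 at 688 CPM, with an interval of 616 to 766, and Kcnk2, a mechanosensitive leak channel, at 173 CPM. Cluster 23, which had as many amacrine as Müller markers and was given no name (321 cells, led by Ebf1, Nhlh2 and Crabp1), had Kcna2 at 602 CPM, Kcnd3 at 517 CPM and Kcnip3 at 285 CPM. These are pooled values with no spread between libraries.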
